A study of Mus musculus with 5 samples.

Results

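The 10 genes described here, Dusp1, Dusp4, Dusp5, Dusp6, Spry1, Spry2, Spry4, Spred1, Spred2 and Etv5, are inhibitors that restrain ERK signalling and are switched on by it, together with 1 transcription factor that is a common readout of the pathway. They were chosen by name, and every probe of these genes on the array was taken. All 10 were measured, by 13 probes, among 17945 tested features that carry a gene symbol. Whole-colon RNA from wild-type mice, 8 weeks old by the study's account, strain given as C57BL/B6, was hybridised to single-colour Agilent arrays with 1 mouse per array. The Control group held 2 mice and the NT-3N group held 3 mice, whose colon was taken 3 hr after an intravenous injection of NT-3N, a modified human IL-11 that acts as an agonist of the IL-11 receptor. For the Control mice the labels state no vehicle injection, so injection and agonist cannot be told apart. The sources disagree on the unit of the dose.

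ERK is the last kinase of the Ras, Raf and MEK cascade, and the IL-11 receptor can reach this cascade through its shared subunit gp130, alongside the better-known route through JAK kinases to STAT3. Active ERK switches on genes for proteins that turn the cascade off again: phosphatases of the Dusp family remove the activating phosphates from MAP kinases, and Sprouty and Spred proteins act upstream at the level of Ras and Raf. Transcripts of these genes are therefore often used as a readout of how active ERK has been, and in the colon the pathway is known for its part in the growth of the epithelium.

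The question for these genes was whether their transcripts differed between the colons of NT-3N and Control mice. At an adjusted p under 0.05 in limma none of the 10 genes differed, against 0.143% of all 32917 features. Dusp1 alone had an unadjusted p under 0.05, so that 1 of 10 genes passed this looser threshold, against 9.62% of all features. It was 1 gene higher, against 4.95% of all features, and 0 genes lower, against 4.67%. The arrays of the groups did not overlap for Dusp1 and Spred1, or 2 of 10 genes, against 28.4% of all features. Of the 13 probes, 1 had an unadjusted p under 0.05, against 9.54% of all probes tested. These shares were near or below those of the whole array, except that the 1 higher gene makes 10% of the genes against 4.95%, a distance of less than 1 gene. For 9 of 10 genes the 95% confidence interval of the difference lay within a 2-fold change in either direction, the exception being Dusp5.

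**Figure D1:**
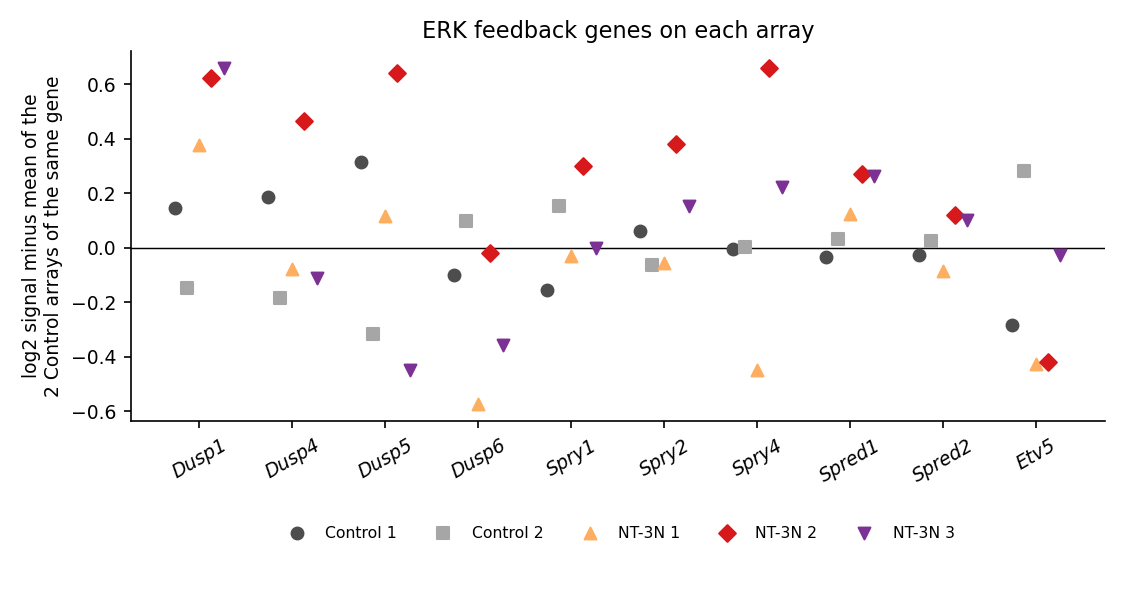
Log2 signal of the 10 genes on each of the 5 arrays, as the difference from the mean of the 2 Control arrays for the same gene, with 1 symbol per array. All NT-3N arrays lie above both Control arrays only for Dusp1 and Spred1, and NT-3N replicate 2, the red diamond, is the highest array for 7 of 10 genes.

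Sequence around a gene's start can hold motifs for the factors that these pathways act through. RefSeq promoters of assembly GRCm38.p6, from 250 bases before to 50 bases after a start, were matched for 8 of the 10 genes. Dusp1 is shown because it had the largest difference, Dusp6 and Etv5 because they are the members on the other side of 0. Capitals mark matches, on either strand, to 4 motifs: the cyclic AMP response element TGACGTCA, the STAT palindrome TTCNNNGAA, the ETS motif GGAAGT and the CArG box bound by serum response factor. Shorter or variant forms of these motifs were not searched. The Dusp1 promoter lies at chr17:26508423-26508722 on the minus strand, that of Dusp6 at chr10:99262981-99263280 on the plus strand, and the Etv5 promoter with matches at chr16:22438319-22438618 on the minus strand.
Dusp1: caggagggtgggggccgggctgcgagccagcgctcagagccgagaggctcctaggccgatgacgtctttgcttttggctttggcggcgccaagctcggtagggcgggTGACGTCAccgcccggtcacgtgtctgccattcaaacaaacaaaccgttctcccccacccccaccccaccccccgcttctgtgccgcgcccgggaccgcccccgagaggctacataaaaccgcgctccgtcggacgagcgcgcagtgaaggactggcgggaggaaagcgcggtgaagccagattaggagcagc
Dusp6: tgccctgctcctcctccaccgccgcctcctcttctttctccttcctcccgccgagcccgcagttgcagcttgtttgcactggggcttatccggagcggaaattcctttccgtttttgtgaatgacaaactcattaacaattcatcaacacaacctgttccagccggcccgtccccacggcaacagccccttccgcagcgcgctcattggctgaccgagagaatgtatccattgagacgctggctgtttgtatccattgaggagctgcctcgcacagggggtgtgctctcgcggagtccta
Etv5: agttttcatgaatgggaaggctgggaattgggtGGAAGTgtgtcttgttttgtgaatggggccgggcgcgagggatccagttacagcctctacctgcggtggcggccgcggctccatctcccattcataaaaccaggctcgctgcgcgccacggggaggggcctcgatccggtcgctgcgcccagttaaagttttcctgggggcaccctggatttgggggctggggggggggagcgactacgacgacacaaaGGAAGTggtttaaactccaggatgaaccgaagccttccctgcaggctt

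The match in Dusp1 is a cyclic AMP response element that starts 143 bases before the gene's start, and 1.79% of 32851 promoters hold this motif. No match to the STAT palindrome was found in any of these promoters, and 8.3% of all promoters hold it. The ETS motif GGAAGT, found in 23.8% of all promoters, was present in Dusp5, Spred2 and Etv5, and Etv5 carries 2 matches. The CArG box was found 2 times in Dusp5, and in 1.63% of all promoters. The windows of Dusp6, Spry1, Spry2 and Spred1 held none of the 4 motifs, and neither did another start of Etv5. Matches to different motifs could overlap by their letters, and none did in these promoters. A match is a description of letters and does not show that a factor binds there.

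Dusp1 encodes a nuclear phosphatase of ERK, p38 and JNK and is induced within minutes by many stimuli. Its log2 signal was 11.19 and 10.90 on the Control arrays and 11.42, 11.67 and 11.71 on the NT-3N arrays. All NT-3N arrays were above both Control arrays, and the gap between the groups was smaller than the spread within either group. Control mice averaged 11.05 ± 0.21 (SD, n = 2) and NT-3N mice averaged 11.60 ± 0.15 (SD, n = 3). The log2 difference was 0.55 with a standard error of 0.14, or 1.47-fold with a 95% confidence interval from 1.17 to 1.84. The unadjusted p in limma was 0.0057 and the adjusted p was 0.29. The exact permutation p was 0.1, the smallest that 2 arrays against 3 can give. A difference of larger size was seen for 8.81% of all features. Dusp1 is also a target of glucocorticoids. Of 5 glucocorticoid-responsive genes, 4 had lower means in NT-3N, with a median log2 difference of -0.38, and Tsc22d3 was the only one with an unadjusted p under 0.05, at a log2 difference of -0.46 and an adjusted p of 0.32. The part of glucocorticoid tone in the Dusp1 signal was not tested.

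Dusp6 is a cytoplasmic phosphatase that is selective for ERK and belongs to the most widely used transcript readouts of the pathway. Its log2 signal was 12.30 and 12.50 on the Control arrays and 11.82, 12.38 and 12.04 on the NT-3N arrays. The groups overlapped through NT-3N replicate 2, which lay between both Control arrays. The log2 difference was -0.32 (standard error 0.17), and its 95% confidence interval ran from -0.73 to 0.094. As a fold this was 0.803, with an interval from 0.605 to 1.07. The adjusted p in limma was 0.62 and the exact permutation p was 0.3.

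Dusp4 and Dusp5 encode nuclear phosphatases, of which Dusp5 acts on ERK alone. Dusp4 had log2 signals of 6.29 and 5.92 on Control arrays and of 6.03, 6.57 and 5.997 on NT-3N arrays. Dusp5 was near the limit of detection, well above background on 3 of 5 arrays, at 4.05 and 3.42 on Control arrays and 3.86, 4.38 and 3.29 on NT-3N arrays. Both genes were highest on NT-3N replicate 2 and overlapped between the groups. The log2 difference of Dusp4 was 0.093 (standard error 0.24), and limma gave an adjusted p of 0.92. That of Dusp5 was 0.10 with a standard error of 0.44, and its interval from 0.517-fold to 2.23-fold reached past 2-fold upward. The interval thus left room for a change in Dusp5 in either direction.

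The Sprouty proteins are recruited to the membrane after receptor activation and limit the activation of Ras. Spry1 had log2 signals of 10.58 and 10.88 in Control and of 10.70, 11.03 and 10.73 in NT-3N. Spry2 had signals of 9.98 and 9.85 in Control and of 9.86, 10.30 and 10.07 in NT-3N. Spry4 was dimmer, at 5.20 and 5.21 in Control and 4.76, 5.86 and 5.43 in NT-3N. All 3 genes overlapped between the groups and all 3 were highest on NT-3N replicate 2. Their log2 differences were 0.089 for Spry1, 0.16 for Spry2 and 0.15 for Spry4, with standard errors of 0.15, 0.15 and 0.34. The adjusted p-values in limma were 0.87, 0.76 and 0.91. The Control arrays of Spry4 were 0.0073 apart on the log2 scale while its NT-3N arrays spanned 1.11, so the spread lay within NT-3N. A further, dimmer probe of Spry2 gave a log2 difference of -0.21, the opposite sign to the brighter probe, with an interval from -0.72 to 0.29.

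Spred1 and Spred2 bring neurofibromin, a protein that inactivates Ras, to the membrane. Spred1 had log2 signals of 10.00 and 10.07 in Control and of 10.16, 10.30 and 10.30 in NT-3N. All NT-3N arrays were above both Control arrays by a small margin. The log2 difference was 0.22 with a standard error of 0.099, or 1.16-fold with an interval from 0.985 to 1.37. The unadjusted p was 0.069, the adjusted p in limma 0.56 and the exact permutation p 0.2. A further, dimmer probe of Spred1 gave 0.17 with an interval from -0.33 to 0.68, and by that probe the groups overlapped. Spred2 had signals of 8.42 and 8.47 in Control and 8.36, 8.57 and 8.55 in NT-3N, which overlapped. Its log2 difference was 0.045 with a standard error of 0.12, and its further probe gave -0.16 with an interval from -0.53 to 0.22.

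Etv5 is an ETS transcription factor that ERK signalling both switches on and activates. Its log2 signal was 12.03 and 12.60 in Control and 11.89, 11.90 and 12.29 in NT-3N. The Control arrays were 0.56 apart and NT-3N replicate 3 lay between them, so the groups overlapped. The log2 difference was -0.29 with a standard error of 0.20, or 0.818-fold with an interval from 0.585 to 1.15. The adjusted p in limma was 0.69 and the exact permutation p was 0.5. Without Control replicate 2 the log2 difference was -0.0074, and without Control replicate 1 it was -0.57.

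**Figure D2:**
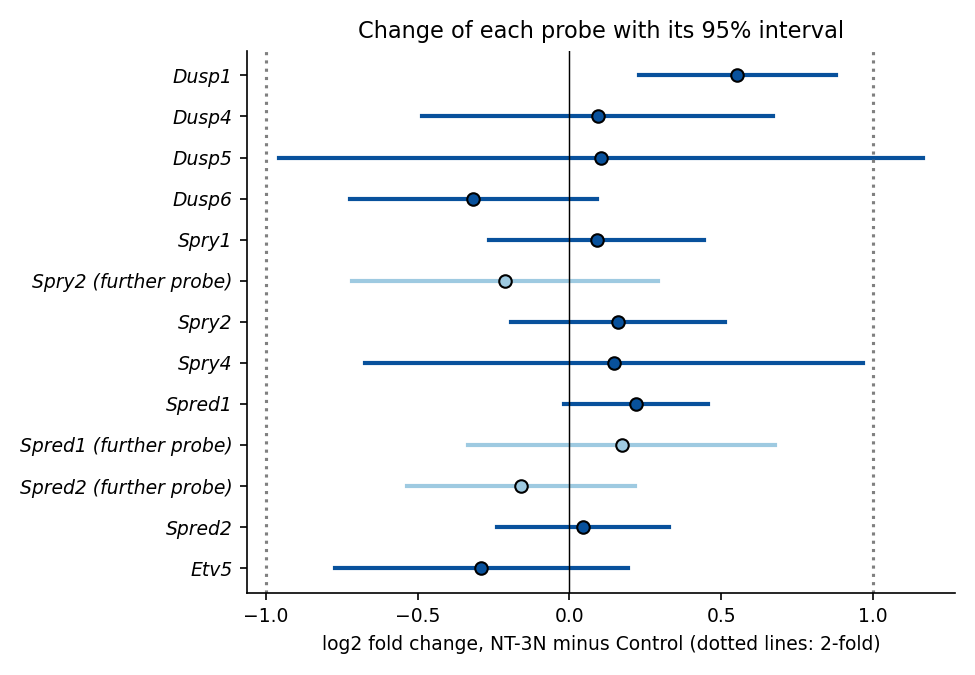
Log2 difference, NT-3N minus Control, of each of the 13 probes (points) with its 95% confidence interval (bars) from a limma fit in which every probe is a feature, in light blue for the further probe of a gene. Only the interval of Dusp1, 1 of 13 probes, leaves out 0, and only that of Dusp5 crosses a dotted line, which marks a 2-fold change.

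Log2 differences above 0 were found for 8 of 10 genes, against 46.4% of all features, with Dusp6 and Etv5 on the other side. The median log2 difference of the 10 genes was 0.098, beside -0.019 for all features. The median size of the difference was 0.15 for the 10 genes and 0.15 for all features. The differences were uneven over the NT-3N arrays. NT-3N replicate 2 was the highest of the 5 arrays for 7 of 10 genes, as it was for 15.7% of all features. Relative to the Control mean, the median of the 10 genes was -0.065 on NT-3N replicate 1, 0.34 on replicate 2 and 0.051 on replicate 3. Without NT-3N replicate 2, 4 of 10 genes had a difference above 0 and the median was -0.053. Scaling to the 75th percentile or the median, or normexp background correction, left NT-3N replicate 2 highest for 6 of 10 genes.

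The same array was the highest for 9 of 14 other genes that ERK signalling induces, for 4 of 5 fibroblast markers, for 3 of 4 endothelial markers and for 5 of 8 genes of the response to gp130 and STAT3. This array was also highest for 3 of 8 epithelial markers and 2 of 4 macrophage markers. For markers of B cells, T cells, neutrophils and fat the counts were 0 of 5, 0 of 4, 0 of 2 and 0 of 4. Among relatives of the 10 genes NT-3N replicate 2 was highest for 2 of 10. Among markers of smooth muscle, of enteric neurons and glia and of interstitial cells of Cajal it was highest for 0 of 5, 0 of 5 and 0 of 2. It was highest for 0 of 15 genes of the Ras, Raf, MEK and ERK cascade itself and for 1 of 10 genes of the p38 and JNK cascades. The summed signal of the 5 fibroblast markers, none of which was at 0, ranged from 42479 to 49548 in Control and from 41858 to 61813 in NT-3N, with the highest value on replicate 2. Dcn, a matrix proteoglycan gene among them, had a log2 difference of 0.32 and an adjusted p of 0.50. Those of the 4 endothelial markers ranged from 2238 to 2475 in Control and from 2396 to 2750 in NT-3N, also with the highest value on replicate 2. The part of cell composition in the levels on this array was not tested. In whole tissue, fewer cells of a type and less RNA per cell cannot be told apart.

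**Figure D3:**
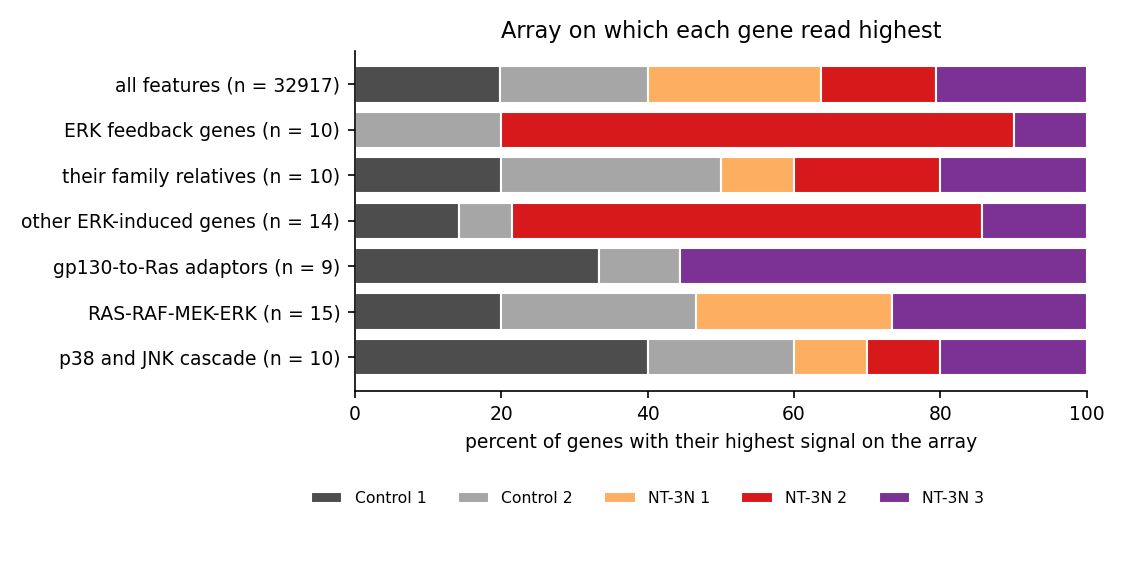
Percent of genes in each list, and of all 32917 features, that had their highest signal on each of the 5 arrays, 1 colour per array. NT-3N replicate 2, in red, holds 70% of the 10 genes and 64.3% of the other ERK-induced genes, against 15.7% of all features.

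Close relatives of these genes give a wider view of the families. Of 11 listed Dusp, Sprouty, Spred and Etv relatives 10 were tested, of which 5 were higher and 5 lower, and none passed the adjusted threshold. At an unadjusted p under 0.05 in limma there were 2 higher and 3 lower, against 4.95% and 4.67% of all features. The arrays of the groups did not overlap for 2 higher and 4 lower relatives, against 13.5% and 14.8% of all features. Dusp9, an ERK-selective phosphatase, had log2 signals of 4.47 and 4.42 in Control and of 5.93, 5.47 and 6.02 in NT-3N. All its NT-3N arrays were at least 1 log2 unit above both Control arrays, and the log2 difference was 1.36 with a standard error of 0.24, at an adjusted p of 0.16 in limma. Its probe was dim, with signals before scaling of 21.4 and 21.9 on the Control arrays. With normexp background correction, which adds an offset of 50, above these signals, the difference was 0.48, at an adjusted p of 0.28 in limma.

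Dusp2, a phosphatase of immune cells, had log2 signals of 9.34 and 7.87 in Control and of 9.58, 9.61 and 9.72 in NT-3N. Control replicate 2 lay far below the other arrays, and the log2 difference of 1.03 had an adjusted p of 0.48 in limma. Without Control replicate 2 the difference was 0.30 with an adjusted p of 0.88, and without Control replicate 1 it was 1.78 with an adjusted p of 0.047. The summed signal of 5 B cell markers was 1057 on Control replicate 2 and between 4300 and 5109 on the other arrays, and all 5 had higher means in NT-3N, among them Ms4a1 with a log2 difference of 3.65 and an adjusted p of 0.059. The part of B cell content in the Dusp2 signal was not tested.

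The 3 relatives that were lower at an unadjusted p under 0.05 were chosen after their values were seen. Dusp14 had a log2 difference of -0.57, Dusp8 of -0.54 and Etv1, an ETS factor related to Etv5, of -0.43, with adjusted p-values in limma of 0.39, 0.41 and 0.34. For all 3 genes, every NT-3N array was below both Control arrays, as it was for 14.8% of all features. Etv1 is also active in interstitial cells of Cajal, the pacemaker cells of the gut wall, for which the markers Kit and Ano1 had log2 differences of -0.39 and 0.29, and were likewise named after their values were seen. All 5 smooth muscle markers had lower means in NT-3N, with log2 differences of -0.22 for Myh11 and -0.25 for Tagln, and their summed signal was 416913 to 435105 in Control and 311752 to 392056 in NT-3N. The part of muscle content in the levels of these 3 genes was not tested.

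Genes of the pathway upstream were read from lists of the same kind. Of 9 genes that link gp130 to Ras, 5 were higher and 4 lower, and of 15 genes of the Ras, Raf, MEK and ERK cascade 6 were higher and 9 lower, none at the adjusted threshold. Il6st, which encodes gp130, had a log2 difference of 0.80 with an adjusted p of 0.17 in limma, and Jak1, the kinase bound to it, had 0.21 with 0.50. In the cascade, the Ras gene Nras had 0.22 with an adjusted p of 0.50 and Nf1, which encodes neurofibromin, had 0.34 with 0.41. Of 10 genes of the p38 and JNK cascades, which Dusp1 also restrains, 5 were higher and 5 lower, with log2 differences from -0.20 to 0.16 and none at an unadjusted p under 0.05.

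Of 14 other genes that ERK signalling induces, 10 were higher and 4 lower, with a median log2 difference of 0.12 and none at the adjusted threshold in limma. Egr1, an immediate early transcription factor, had log2 signals of 8.66 and 9.32 in Control and of 10.49, 11.50 and 10.59 in NT-3N. Its groups did not overlap, and the log2 difference was 1.87 (standard error 0.34), at an adjusted p of 0.17 in limma. With the local-pooled-error test, which the study's methods name and which was run here on group medians, Egr1 passed the threshold. Its log2 difference of medians was 1.60, at an adjusted p of 6.19e-05 in that test. Egr1 was the only one of the 14 genes to pass with it. Over all 32917 features that test passed 397, where limma passed 47. Myc, a growth regulator, had a log2 difference of 0.80 with a standard error of 0.16 and an adjusted p of 0.20, and the mean of its probes gave 0.38 with an adjusted p of 0.43. Fos, another immediate early gene, named after its values were seen, had 0.25 with an adjusted p of 0.71 and overlapped between the groups. Il17rd, a membrane inhibitor of the pathway, and Lif, a cytokine, were the 2 of 14 genes lower at an unadjusted p under 0.05. The share over all features was 4.67%, and both genes were chosen after their values were seen. Il17rd had a log2 difference of -0.44 with an adjusted p of 0.50. Lif was well above background on both Control arrays and on no NT-3N array. Against the lowest detected signal after quantile normalization, it was at least 1.28-fold lower. Its adjusted p in limma was 0.41. The probe was dim, with signals before scaling of 17.3 and 15.9 on the Control arrays. With normexp background correction and its offset of 50, above these signals, the log2 difference of Lif was -0.18, smaller than that bound.

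The response of gp130 through STAT3 was measured on the same arrays as a comparison. Of 8 genes of this response 8 were higher, against 46.4% of all features, and 5 rose at an adjusted p under 0.05, against 0.143%. Their median log2 difference was 1.23, beside 0.098 for the 10 genes. The list was drawn up with results of these arrays known, so its direction is no independent evidence. Socs3, an inhibitor of gp130 signalling, rose by 2.71 on the log2 scale at an adjusted p of 0.0087. Serpina3n rose by 3.33, Osmr by 2.09, Cebpd by 1.73 and Stat3 by 0.74, with adjusted p-values in limma of 0.0027, 0.0057, 0.043 and 0.043. Over all features, 0 passed an adjusted p under 0.05 in limma without NT-3N replicate 3 and 1 without NT-3N replicate 2. No test of the difference between the lists was made.

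**Figure D4:**
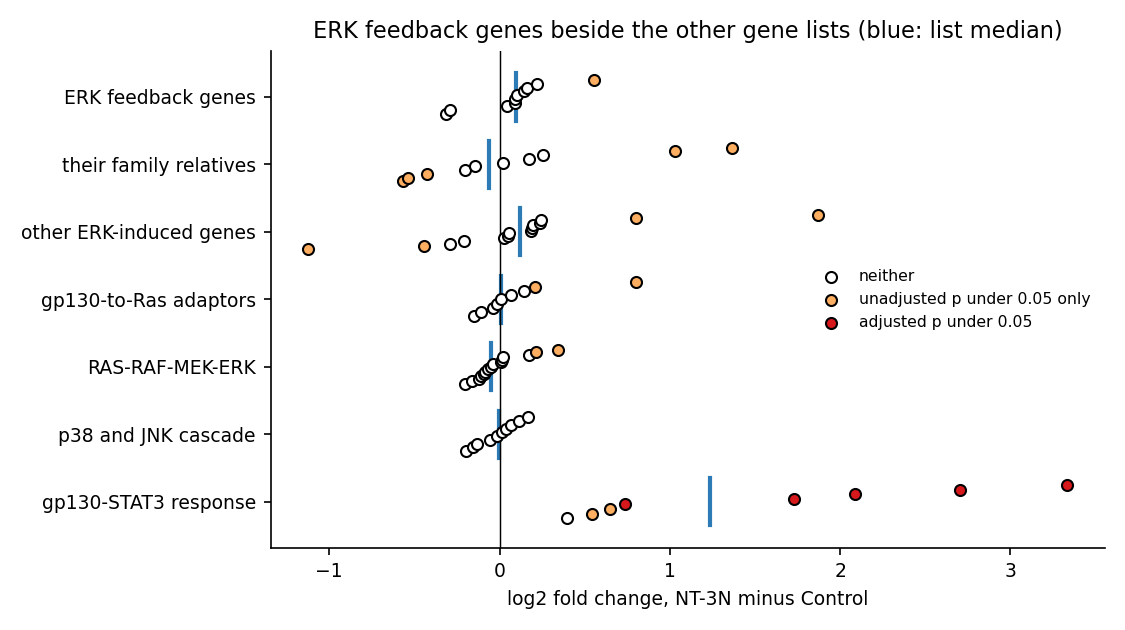
Log2 difference, NT-3N minus Control, of every tested gene in 7 lists (points, raised with rank only to keep them apart), with each list's median as a blue line, orange for an unadjusted p under 0.05 only and red for an adjusted p under 0.05. The 10 genes lie between -0.32 and 0.55, and red points occur only among the 8 genes of the response to gp130 and STAT3.

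On each array 70.6% to 73.1% of probes stood well above background and no spot was saturated, and 9 of the 10 genes passed this mark on all 5 arrays. The label of colon was met by its markers, as all 8 epithelial markers and all 5 smooth muscle markers did so on every array. Correlations between arrays across features lay from 0.980 to 0.992. All arrays shared 1 slide and 1 scan time.

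**Figure D5:**
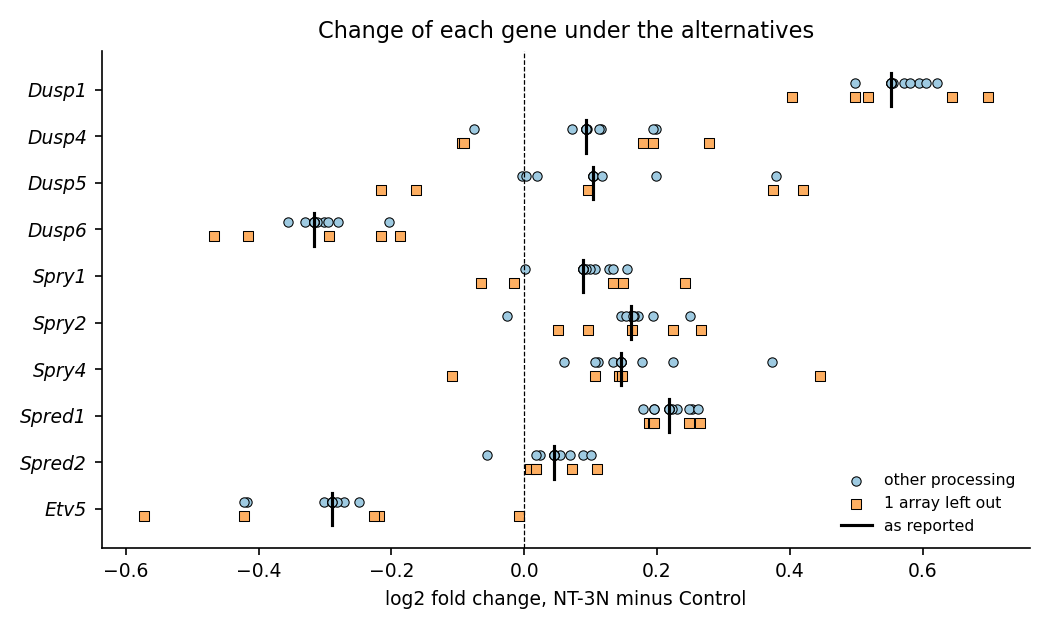
Log2 difference, NT-3N minus Control, of each of the 10 genes as reported (black line), under other processing (blue circles) and with 1 array left out (orange squares). Dusp1 lies between 0.40 and 0.70 throughout, while Dusp4, Dusp5, Spry1, Spry2, Spry4 and Spred2 cross 0 under at least 1 alternative.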

How the data were processed

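RNA of 5 mice was measured on single-colour Agilent arrays. The authors extracted the spots with Feature Extraction 11.0.1.1, per the labels, and deposited for each spot a background-subtracted intensity not scaled between arrays. They also deposited log2 values of 37380 probes, which were used as an alternative only. The deposited well-above-background, outlier and saturation flags were used as given.

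Outlier and control spots were left out, intensities were log2-transformed, and arrays were quantile-normalized. Probes were named by RefSeq accession, for 32994 of 56605 probes. The brightest probe stood for a gene. Probes had to be well above background on 2 arrays, with values on both Control and at least 2 NT-3N arrays, which left 32917 features. The array design refers to another build, so no probe coordinates are given. Groups came from the labels and were fitted in limma 3.58.1 (R 4.3.3) by lmFit and trended eBayes. Two-sided p-values were adjusted by Benjamini-Hochberg across the full set of features. The study's methods name a local-pooled-error test, which was run as an alternative. Its log2 differences are between group medians, while those of limma are between group means. Both tests were run on simulated data with known changes. Replicates were separate mice, and their number limits the precision.

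The 10 genes and all lists were chosen with earlier results of these data known. All 10 genes were named, and of other lists each gene at an adjusted p under 0.05 and the 2 largest changes among genes well above background on 5 arrays with an unadjusted p under 0.05. Genes named outside this rule are said to be so where they appear. A gene detected in 1 group only has its fold given as a bound, from the bright group's mean against the higher of the dim probe's signal and the lowest detected signal. Spry3 was not tested. Alternatives varied scaling, background correction, filter, variance model, weights, probe rule, replicate block and left-out array.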

Additional observations from a re-analysis of the deposited data

How the results depend on the processing

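None of the 10 genes passed an adjusted p under 0.05 under any of 18 alternatives, of which Dusp5 could be measured in 16. Log2 differences above 0 were found for 4 to 8 genes, fewest without NT-3N replicate 2. Dusp1 was higher with an unadjusted p under 0.05 in 18 of 18, with log2 differences from 0.40 to 0.70 and adjusted p-values from 0.10 to 0.82. The number of genes higher at an unadjusted p under 0.05 was 2 with no filter on dim probes and 2 with array quality weights, in place of 1. The number lower was 1 with the local-pooled-error test, in place of 0. Leaving out 1 array in turn gave 0 genes at the adjusted threshold each time, 1 to 2 higher and 0 to 1 lower at an unadjusted p under 0.05, and a median log2 difference from -0.053 to 0.17. The gene added without NT-3N replicate 1 was Spred1. The gene lower without Control replicate 1 was Etv5, at -0.57. Leaving out Control replicate 2 instead gave -0.0074 for Etv5. Dusp6 was the gene lower without NT-3N replicate 2, at -0.47.

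Directions turned only for genes with a log2 difference of 0.16 or less in size. The log2 difference of Dusp5 was -0.0028 with 75th percentile scaling. That of Dusp4 was -0.076 with the local-pooled-error test, which takes group medians in place of means. With the mean of the probes the differences of Spry2 and Spred2 were -0.026 and -0.057, since the 2 probes of each gene differ in sign. Beyond these points, the cause of the turns was not tested. With 1 array left out, log2 differences ran from -0.094 to 0.28 for Dusp4, from -0.22 to 0.42 for Dusp5, from -0.065 to 0.24 for Spry1 and from -0.11 to 0.44 for Spry4. All 4 were below 0 without NT-3N replicate 2, Dusp4 and Dusp5 also without Control replicate 2, and Spry1 also without Control replicate 1.

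Replicate numbers were not taken to pair mice. Deviations of arrays with the same number from their group means correlated at 0.13 and 0.036. These 2 values cannot decide on pairing, since deviations of 2 Control arrays from their own mean mirror each other. With the replicate number as a block, which draws nothing from NT-3N replicate 3, 0 genes passed the adjusted threshold, the Dusp1 difference was 0.50 with an adjusted p of 0.65 and the median of the 10 genes was 0.15. Over all features the count at the adjusted threshold was 47, and it was 0 with the block, 0 without NT-3N replicate 3, 1 without NT-3N replicate 2, 2 with no filter, 2 with no intensity trend, 170 with array quality weights and 397 with the local-pooled-error test. Dim probes limit Dusp5 most, and intervals cover the spread between these 5 mice only.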
